A study of Mus musculus with 28 samples.

Results

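The neurotrophins and their receptors were followed as 6 of the 24946 gene symbols in each deposited table of mouse epidermis RNA-seq. They were the ligand genes Bdnf, Ntf3 and Ntf5 and the receptor genes Ntrk2, Ntrk3 and Ngfr. The genes were chosen by symbol with the knockout against control differences of these same libraries in view, so those differences are given below as a description, without a test. All 6 genes passed the filter on low values in all 4 tables, which asked for a normalized read count of 10 or more in a number of libraries no lower than the size of the smaller group.

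The study deleted Kdm6a (Utx), which lies on the X chromosome and encodes an enzyme that removes methyl groups from histone H3, from tissues that express keratin 14 with a Krt14-Cre transgene. The labels call the sample murine epidermis and give 28 libraries. Controls carried no Cre and were Utx fl/fl in females and Utx fl/Y in males, except male control 3, which was Utx +/Y. The conditional knockouts (cKO) carried Cre and were Utx fl/fl or Utx fl/Y, and 3 heterozygous females carried Cre with Utx +/fl. Ages are given only as young and aged in the titles of the deposited tables, and no strain is given. Single-library values could be used for 25 libraries: young females (4 controls, 5 cKO), young males (3 of each), aged females (2 of each) and aged males (3 of each). Replicates are numbered within each sex and genotype in the order of the samples, so the aged females are controls 5 and 6 and cKO 6 and 7, and the aged males are controls 4 to 6 and cKO 4 to 6. Krt14-Cre acts in hair follicles as well as in the epidermis between them, and cells that do not express keratin 14 keep the gene.

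Neurotrophins are secreted proteins that are made as longer precursors and cut to their mature form. Each mature ligand binds a Trk receptor tyrosine kinase: BDNF (Bdnf) and neurotrophin-4 (Ntf5) bind TrkB, the product of Ntrk2, and neurotrophin-3 (Ntf3) binds mainly TrkC, the product of Ntrk3. All of them also bind the p75 receptor (Ngfr), which takes the precursors together with sortilin-type partners. In mouse skin, keratinocytes make several of these ligands, which support the sensory nerve endings that reach the epidermis and take part in the hair cycle.

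The start regions of the receptor and ligand genes are shown because Kdm6a acts on chromatin and CG pairs are a main feature of the DNA around many gene starts. RefSeq start windows (build GRCm38.p6, from 250 bases before to 50 bases after an annotated start, 300 bases each) were held for 4 of the 6 genes. Ngfr and Ntrk2 had 1 window each, Ntf3 had 2 and Bdnf had 7. Ntrk3 and Ntf5 are named only. The windows below are written 5′ to 3′ on the gene's strand, with each CG pair in capitals.
Ngfr, chr11:95587649-95587948, minus strand: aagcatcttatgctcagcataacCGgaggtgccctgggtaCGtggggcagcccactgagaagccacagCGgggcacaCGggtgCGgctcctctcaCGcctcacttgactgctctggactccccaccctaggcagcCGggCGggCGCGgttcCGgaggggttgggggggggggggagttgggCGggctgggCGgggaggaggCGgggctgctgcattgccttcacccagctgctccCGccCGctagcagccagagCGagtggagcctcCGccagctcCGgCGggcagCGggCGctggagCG
Ntrk2, chr13:58806319-58806618, plus strand: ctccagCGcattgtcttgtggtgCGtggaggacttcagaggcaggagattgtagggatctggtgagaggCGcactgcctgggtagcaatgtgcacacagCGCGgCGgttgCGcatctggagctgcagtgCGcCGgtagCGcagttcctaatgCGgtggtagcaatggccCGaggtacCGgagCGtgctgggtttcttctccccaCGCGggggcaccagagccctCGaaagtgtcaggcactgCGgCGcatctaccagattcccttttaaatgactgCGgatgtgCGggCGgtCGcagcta
Ntf3, first start, chr6:126166695-126166994, minus strand: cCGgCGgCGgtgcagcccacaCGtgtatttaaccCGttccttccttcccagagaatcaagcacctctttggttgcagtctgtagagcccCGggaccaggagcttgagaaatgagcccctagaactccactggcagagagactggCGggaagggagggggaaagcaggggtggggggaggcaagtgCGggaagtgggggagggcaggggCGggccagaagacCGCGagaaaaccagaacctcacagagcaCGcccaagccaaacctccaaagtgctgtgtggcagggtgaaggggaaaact
Ntf3, second start, chr6:126164911-126165210, minus strand: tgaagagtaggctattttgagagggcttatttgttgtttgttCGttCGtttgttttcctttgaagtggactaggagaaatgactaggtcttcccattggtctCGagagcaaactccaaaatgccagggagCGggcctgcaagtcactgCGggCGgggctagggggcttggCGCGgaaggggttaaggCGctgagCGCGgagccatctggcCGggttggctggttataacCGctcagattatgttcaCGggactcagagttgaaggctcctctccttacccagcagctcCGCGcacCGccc
Bdnf, most upstream start, chr2:109674450-109674749, plus strand: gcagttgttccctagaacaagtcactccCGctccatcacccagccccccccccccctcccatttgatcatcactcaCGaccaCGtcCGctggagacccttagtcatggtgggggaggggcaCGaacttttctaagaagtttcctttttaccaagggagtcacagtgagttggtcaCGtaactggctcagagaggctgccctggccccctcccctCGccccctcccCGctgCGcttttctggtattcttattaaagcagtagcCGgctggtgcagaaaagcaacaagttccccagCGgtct
The motif searched was CG, which reads the same on both strands. The Ngfr and Ntrk2 windows each held 23 CG pairs, and 21.5% of the 32851 mouse windows in the RefSeq table held at least as many. The Ntf3 windows held 12 and 17, which 39.6% and 31.4% of windows reached, and the Bdnf window held 11, which 41.4% reached. The median window in the table held 7, and 94.6% of all windows held at least 1 CG pair. The 2 receptor windows were thus denser in CG pairs than the 3 ligand windows shown. No chromatin or methylation values were used here.

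The libraries held about 15.8 to 34.4 M reads, approximated from the smallest step between low values, and 16405 to 17923 genes above 0. The labelled tissue was checked against its markers: 7 basal keratinocyte markers, Krt5 and Krt14 among them, had a summed level of 494107 to 608256 normalized read counts in young female controls and 515008 to 610372 in young female cKO. Kdm6a ranged from 1265 to 1663 in young female controls against 873 to 1154 in cKO, from 816 to 1187 against 460.2 to 573 in young males, and from 2852 to 3367 against 1299 to 1373 in aged females. In aged males Kdm6a was 1089.7, 1224 and 1511 in the libraries labelled control 4 to 6 and 584, 1322 and 673 in those labelled cKO 4 to 6. Its log2 difference, cKO minus control, was -0.50 in young females, for which an exact two-sided permutation test gave p = 0.00794, the smallest that 126 splits allow. It was -0.93 in young males (exact p = 0.1, the smallest possible), -1.21 in aged females (exact p = 0.333, the smallest possible) and -0.65 in aged males (exact p = 0.3). Growth hormone (Gh) transcript, which stood at 0 to 2.58 in the controls and at 331 to 820.2 in the cKO libraries of the other 3 tables, was 2443 and 559 in the libraries labelled male control 5 and 6 and 0 in the library labelled male cKO 5. Gh thus went against the label in these 3 libraries. Kdm6a went against it only in the library labelled male cKO 5, since controls 5 and 6 had Kdm6a above control 4. Each aged male difference of a gene named below is given with and without the 3 libraries. Without them the 1 control left is male control 4, so these values rest on that library. Its summed level of skeletal muscle markers was 13576, against 599 and 356 in the libraries labelled control 5 and 6. It was 249 to 640 in those labelled cKO, and the part of muscle in the differences was not tested.

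Ntrk3, the TrkC receptor gene (chromosome 7, 78175959 to 78738012, minus strand, GRCm38), was the member with the largest difference, and it was seen in young females. Its normalized read counts in the 4 young female controls were 10.5, 26.9, 12.5 and 9.24. In the 5 cKO libraries they were 86.5, 69.9, 51.3, 70.6 and 66.0. The lowest cKO library thus lay above the highest control, and the groups did not overlap. The mean was 14.8 ± 8.17 (SD, n = 4) in controls and 68.9 ± 12.6 (SD, n = 5) in cKO, a ratio of 4.65 and a log2 difference of 2.25 (SE 0.32). Ntrk3 was the 1 of 6 members past the threshold of the fit over all genes (limma with Benjamini-Hochberg adjustment), where 3.94% of all 13898 tested genes passed in either direction and 1.54% as higher; 3.74% of tested genes had no overlap in that direction. Because these values chose the gene, nothing is read from that count. Control 2, at 26.9, was the highest of the controls.

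Smaller differences of Ntrk3 were measured in the other tables. In young males it was 18.1, 6.52 and 19.3 in controls and 21.2, 16.1 and 16.8 in cKO, a log2 difference of 0.40 (SE 0.51). In aged females it was 31.1 and 47.1 in controls and 48.4 and 45.9 in cKO, a log2 difference of 0.29 (SE 0.34). Among aged males the values were 31.6, 26.1 and 50.02 in libraries labelled control and 26.5, 63.8 and 41.6 in those labelled cKO, a log2 difference of 0.25 (SE 0.44) that became 0.07 without the 3 libraries. The groups overlapped in each of these 3 tables. The differences between tables were not tested. As deposited, the aged controls of both sexes held more Ntrk3 than the young controls, but age and table cannot be told apart, because each table was scaled on its own. In counts per M of each library's summed values the young and aged controls overlapped. Female controls had 0.448 to 1.25 in the young and 1.01 and 1.51 in the aged. Male controls had 0.307 to 0.903 in the young and 0.863 to 1.65 in the aged.

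The library numbers in the titles fall into series whose libraries deviated together, as did some pairs of different series. The young female Ntrk3 difference was also taken within each series. It was 2.13 in the series with 2 control and 2 cKO libraries, 2.18 in the series with 1 control and 2 cKO, and 2.71 in the series with 1 of each. The difference was thus above 2 in every series. In bulk epidermis, more cells of a type and more RNA per cell cannot be told apart. Markers of other cell types also differed in the same libraries. The summed level of 10 Merkel cell markers was 56.8 to 97.7 in young female controls and 103 to 158 in cKO, without overlap, and it did not follow that order in young males (73.8 to 126.97 against 73.5 to 87.5). Of the 10, 4 passed the filter and none was called. They were Krt8, which averaged 13.5 in controls and 43.2 in cKO (log2 difference 1.49, SE 0.48), Chga (29.4 and 47.7), Syp (12.7 and 18.6) and Piezo2 (14.8 and 13.7). On the log2 scale all 4 had a difference above 0, Piezo2 included, with a median of 0.74. The defining markers Atoh1, Krt20 and Sox2 averaged 0.792, 0.743 and 0.972 in controls and 0.266, 1.80 and 1.10 in cKO, which is near 0. Mag, a myelin gene, was 8.60, 15.8, 10.9 and 13.4 in controls and 74.5, 65.3, 48.4, 39.9 and 51.5 in cKO, a log2 change of 2.11 (SE 0.28, limma adjusted p = 0.00257). It was the 1 called gene of 11 Schwann cell and nerve sheath markers, whose summed level overlapped between groups (2509 to 4465 against 3026 to 5366). In aged females, where Ntrk3 overlapped, Mag was 12.7 and 17.5 in controls and 38.4 and 71.4 in cKO and was not called. Among the 63 marker genes tested in young females the other calls were Kit (log2 change 1.66, limma adjusted p = 0.0401), Krt1 (log2 change 1.25, adjusted p = 0.00322) and Ivl (log2 change 1.33, adjusted p = 0.00834). These made 4 calls of 63, where 3.94% of all genes were called. Kit was on the melanocyte list, with 2 of 5 tested markers above 0 and an overlapping summed level (754 to 1694 against 832 to 2150). Krt1 and Ivl were on the suprabasal keratinocyte list, with 4 of 6 above 0. Its summed level overlapped too (439173 to 607260 against 402458 to 724478). All 6 Langerhans cell markers had a log2 difference above 0 in young females and none was called. Their sum ranged from 20452 to 27170 over the controls and from 27069 to 37821 over the cKO libraries, a narrow overlap, and its mean was higher in cKO within each series. Cd74 was the 1 of them without overlap (log2 difference 0.50, SE 0.14), as for 3.74% of all tested genes in that direction. All 7 fibroblast markers were also above 0 with none called, and their summed level overlapped (761 to 2972 against 1150 to 4788). The part of these cells and genes in the Ntrk3 difference was not tested.

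**Figure D1:**
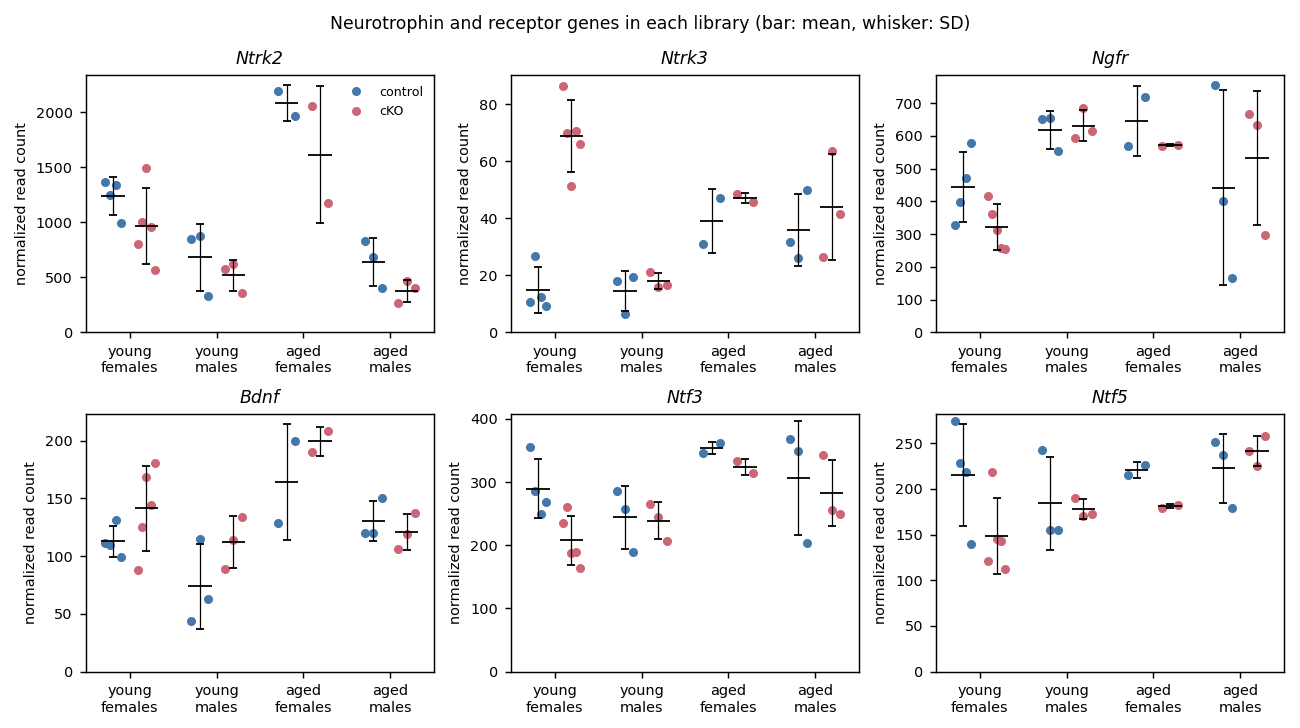
Normalized read counts (y axis, linear, from 0) of the 6 genes in each of the 25 libraries, by table and genotype; each point is 1 library, the bar is the mean and the whisker 1 SD. The 5 young female cKO points for Ntrk3 sit between 51.3 and 86.5, above the 4 controls at 9.24 to 26.9, whereas in the other panels most groups overlap.

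Ntrk2, the TrkB receptor gene (chromosome 13, 58806569 to 59133970, plus strand), had a lower mean in cKO than in control in all 4 tables, and the libraries overlapped in each. In young females it was 1371, 1250.0, 1338 and 995 in controls and 805, 1007, 1496, 961 and 568.2 in cKO. The means were 1239 ± 170.1 (SD, n = 4) and 967 ± 342 (SD, n = 5), a log2 difference of -0.42 (SE 0.23). The cKO libraries spread more widely than the controls, with cKO 3 above every control. In young males Ntrk2 was 845, 876 and 333 in controls and 573, 619 and 361 in cKO, a log2 difference of -0.31 (SE 0.38). The aged female values were 2199 and 1972 against 2056 and 1177, a log2 difference of -0.42 (SE 0.25). Male control 3, the Utx +/Y library, was the lowest of the young male libraries. Its summed level of skeletal muscle markers was 9524, against 1594 and 692 in male controls 1 and 2 and 157 to 1035 in cKO. Genotype and muscle cannot be told apart in this 1 library. Without it the young male log2 difference was -0.77. Within series that difference was -0.56, 0.12 and -0.50, with male control 3 in the series at 0.12.

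In aged males Ntrk2 was 833, 682 and 404 in the libraries labelled control and 269.7, 468.06 and 401 in those labelled cKO, a log2 difference of -0.73 (SE 0.32). Without the 3 libraries the difference was -1.34, with 1 control at 833 against cKO libraries at 269.7 and 401. On the log2 scale, cKO 3 of the young females was the 1 library labelled cKO in the 4 tables that did not lie below the control mean of its table. Within series the young female differences were -0.54, -0.16 and -0.81. The values annotated to Ntrk2 cover 10 transcripts, 7 of them protein coding, and for Ntrk3 20 transcripts, 6 of them protein coding. Full-length and truncated receptors are thus summed in 1 value, and their parts cannot be told apart.

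Ngfr, the p75 receptor gene (chromosome 11, 95568818 to 95587735, minus strand), was lower on average in the young female cKO libraries, and its values elsewhere were mixed. Young females had 329, 397, 470.4 and 579.7 in controls and 417, 363, 312, 258 and 255.4 in cKO. The means were 444 ± 107 (SD, n = 4) and 321 ± 69.7 (SD, n = 5), a log2 difference of -0.46 (SE 0.20), and the groups overlapped. Every cKO library lay below the control mean. The difference was not shared by the series of library numbers: it was 0.11 in the series with 2 control and 2 cKO libraries, -0.73 in the series with 1 control and 2 cKO, and -1.18 in the series with 1 of each. In young males Ngfr was 650.1, 654 and 552 in controls and 594, 686 and 615 in cKO, a log2 difference of 0.03 (SE 0.14). In aged females it was 569 and 719.8 against 570.0 and 573, a log2 difference of -0.16 (SE 0.15). The aged male libraries varied most, with 757, 402 and 165 in those labelled control and 667, 632 and 297 in those labelled cKO. Their log2 difference of 0.44 (SE 0.56) turned to -0.76 without the 3 libraries. The summed level of 7 fibroblast markers also spread widely in aged males, from 1625 to 29526 in libraries labelled control and from 1819 to 34746 in those labelled cKO, and its part in the Ngfr spread was not tested.

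Ntf3, the neurotrophin-3 gene (chromosome 6, 126101412 to 126166910, minus strand), encodes the main ligand of TrkC. In young females it was 356, 285, 249 and 269 in controls and 235, 261, 188, 190.1 and 164 in cKO. Only cKO 2 reached into the control range. The means were 289.7 ± 46.4 (SD, n = 4) and 208 ± 39.2 (SD, n = 5), a ratio of 0.717 and a log2 difference of -0.48 (SE 0.17). Within series the difference was -0.36, -0.39 and -0.71. Ntf3 and its receptor gene Ntrk3 thus differed in opposite directions in each series of young females. In young males Ntf3 was 287, 257 and 189 in controls and 265, 245 and 207 in cKO, a log2 difference of -0.02 (SE 0.21). Aged females had 347 and 361 against 333 and 315, a log2 difference of -0.13 (SE 0.14). These groups did not overlap, as was so for 22% of all 14652 tested genes in that direction. In aged males it was 368, 348 and 204 against 343, 255.3 and 250.0, a log2 difference of -0.08 (SE 0.28), and -0.33 without the 3 libraries.

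Ntf5, the gene of neurotrophin-4 (chromosome 7, 45413695 to 45417179, plus strand), encodes a ligand of TrkB. The young female values were 274, 229, 218 and 139.6 in controls and 121, 218, 145, 142.97 and 112.7 in cKO. The means were 215 ± 55.7 (SD, n = 4) and 148 ± 41.6 (SD, n = 5), a log2 difference of -0.53 (SE 0.24), and control 4 lay among the cKO libraries. Within series the difference was -0.62, -0.60 and -0.31. The young male values were 243, 155 and 155 in controls and 190.2, 171 and 173 in cKO, a log2 difference of -0.02 (SE 0.23). In aged females it was 215 and 227 against 179 and 183, a log2 difference of -0.28 (SE 0.17). These groups did not overlap, as was so for 22% of all 14652 tested genes in that direction. In aged males Ntf5 was 251, 237 and 179 against 241, 225 and 258, a log2 difference of 0.13 (SE 0.20). That difference was -0.01 without the 3 libraries.

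Bdnf (chromosome 2, 109674700 to 109727007, plus strand) encodes the other TrkB ligand, and its log2 difference had the opposite sign to that of Ntf5 in each of the 4 tables. Some of these signs belong to values near 0 and changed with the processing. Ntf5 in young males kept its sign in 9 of 12 alternatives. Each of the 2 genes kept it in 11 of 13 in aged males, and Bdnf in 9 of 10 in aged females. In young females it was 111.8, 109.9, 131 and 99.3 in controls and 87.8, 125, 169, 145 and 181 in cKO, a log2 difference of 0.28 (SE 0.21). Within series the difference was -0.08, 0.25 and 0.86. In young males it was 44.1, 115.2 and 63.1 against 89.1, 113.97 and 134, a log2 difference of 0.69 (SE 0.37). In aged females the values were 128.5 and 199.7 against 191 and 209, a log2 difference of 0.31 (SE 0.25). In aged males it was 120.3, 120.0 and 150.5 against 106, 119 and 137.3, a log2 difference of -0.11 (SE 0.23), and 0.01 without the 3 libraries. The groups overlapped in all 4 tables. The exons of Bdnf overlap those of the antisense gene Gm45346. The library kit kept the strand per the labels, but whether counting used it is not given in the sources used here, so reads of the 2 genes may not have been separated.

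**Figure D2:**
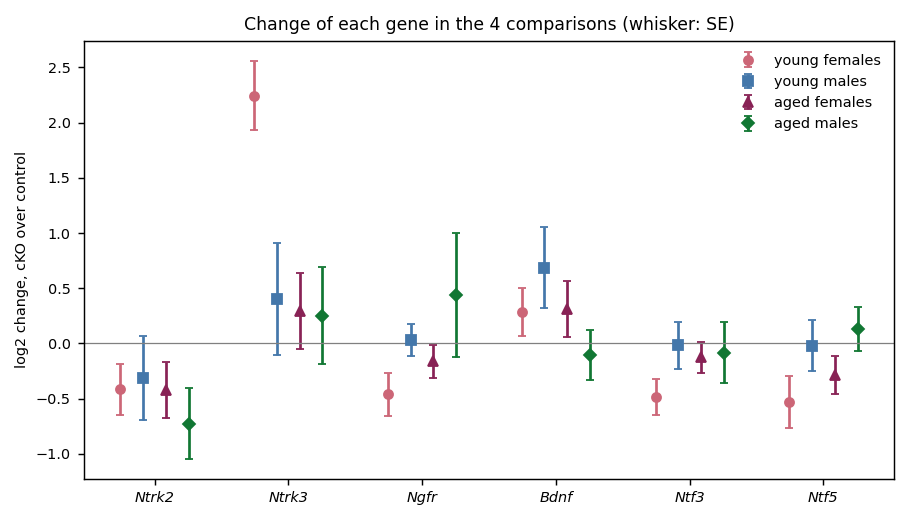
Log2 difference, cKO minus control, on the log2(value + 1) scale (y axis) of the 6 genes (x axis) in the 4 tables; points are limma estimates and whiskers 1 SE. Ntrk3 in young females stands at 2.25, and the other 23 points lie between -0.73 and 0.69.

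As a group the 6 members did not move one way. Their median log2 difference was -0.44 in young females, with 2 of 6 above 0, where the median of all tested genes was -0.01. It was 0.01 in young males with 3 of 6 above 0, -0.14 in aged females with 2 of 6, and 0.02 in aged males with 3 of 6, or -0.17 with 2 of 6 without the 3 libraries whose Gh went against the label, and the medians of all tested genes were within 0.01 of 0. Skeletal muscle markers had lower values in cKO in all 4 tables, with a list median of -0.95 in young females, -2.64 in young males, -1.66 in aged females and -1.73 in aged males and no called gene. Their summed level was 129 to 4151 in young female controls and 65.8 to 1338 in cKO, and its part in the members' values was not tested. No member was past the threshold in young males, where 0.0146% of tested genes passed, in aged females (0.669%) or in aged males (0.014%). With the series of library numbers as a replicate block, the young female log2 difference was 2.28 for Ntrk3, -0.45 for Ntf3 and -0.48 for Ntrk2. It was -0.54 for Ntf5, -0.45 for Ngfr and 0.24 for Bdnf. Ntrk3, Ntf3 and Ntrk2 were past the threshold in that fit, where 14.5% of all tested genes were. Nothing is read from that, since these values chose the genes.

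The 3 heterozygous young females were available only in the authors' deposited comparison table, which gives a mean per group and a log2 fold change against young female controls. Which control libraries it used is not given in the sources used here. Its control means differed unevenly from those of the authors' deposited cKO table: Ntrk3 was 12.6 against 14.5, Ngfr 607 against 445 and Kdm6a 1715 against 1444. In the authors' deposited table Ntrk3 had a mean of 12.6 in controls and 39.7 in heterozygotes, a log2 fold change of 1.65 (SE 0.75). The authors' deposited table gave Ntrk3 an adjusted p of 0.9999 there, as it did for all 6 members, and 0.271% of the 9236 genes with an adjusted p passed. For Ngfr the authors' deposited table gave a log2 fold change of -0.47 in heterozygotes, for Ntf3 -0.16, for Ntf5 -0.07, for Ntrk2 -0.14 and for Bdnf 0.42. The same source gave for the cKO young females, in the authors' deposited table, 2.26 for Ntrk3, -0.47 for Ngfr, -0.49 for Ntf3, -0.54 for Ntf5, -0.36 for Ntrk2 and 0.33 for Bdnf. The SE of the Ntrk3 value was 0.34 in the authors' deposited cKO table. Since the controls may differ, the values are given side by side, and the 2 genotypes were not tested against each other.

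Levels were compared between genes as normalized read counts per kb of annotated exon. In young female controls Ntf3 was highest at 169 ± 27.1 (SD, n = 4), followed by Ngfr at 129 ± 31.1, Ntf5 at 81.1 ± 21.0 and Ntrk2 at 64.2 ± 8.82. The ranges of neighbours in this order overlapped from Ntf3 to Ntrk2. Bdnf stood at 18.2 ± 2.15 and Ntrk3 at 0.491 ± 0.271, the lowest of the 6. Ntrk3 was also the lowest of the 6 genes in every other group of every table, young female cKO included, where it averaged 2.28 per kb. The exons of Ntrk3 together span 30.2 kb and those of Ntrk2 19.3 kb, against 1.71 kb for Ntf3. Reads from 1 shorter receptor transcript are thus diluted in this measure. Ntf3 was highest in all groups except the young males, where Ngfr averaged 179.6 in controls and 183 in cKO against 142.5 and 139.4 for Ntf3. In control epidermis of each table Ntf3 and Ngfr averaged above Ntrk2 and Ntrk3 per kb. Before division by length, Ntrk2 averaged 1239 in young female controls, against 444 for Ngfr and 289.7 for Ntf3. The order of Ntrk2 against Ntf3 and Ngfr thus depends on the length used, and which transcripts were expressed cannot be told.

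**Figure D3:**
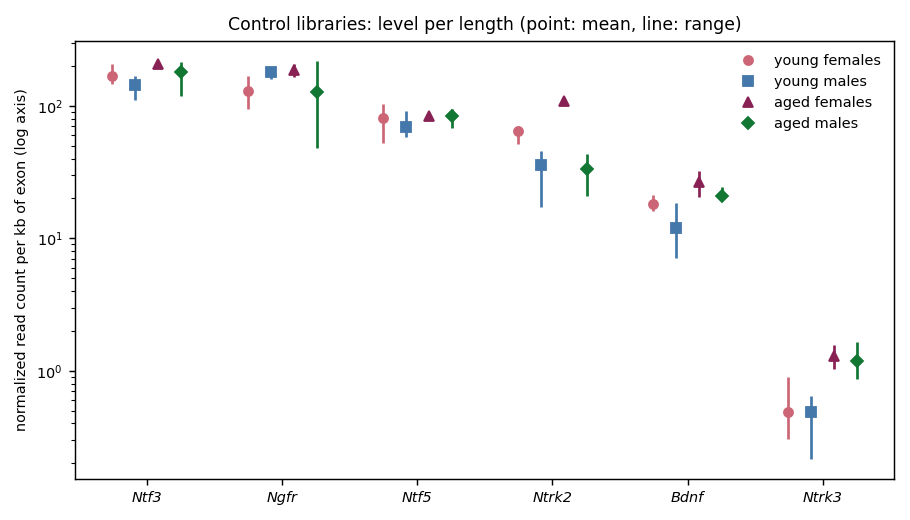
Normalized read counts per kb of exon (log y axis) of the 6 genes in control libraries; points are means and lines the range over libraries, in the 4 tables. In young female controls Ntf3 averages 169 and Ntrk3 0.491, with Ntrk3 lowest in every table.

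Among libraries of the same group, Ntf3 varied with several other members. The pairs with Ntrk3 had weak correlations, as had several pairs without it. Over the 25 libraries, after the mean of each group in each table was subtracted, Pearson r was 0.62 between Ntf3 and Ntf5, 0.59 between Ntf3 and Ngfr, 0.50 between Ntf3 and Ntrk2 and 0.47 between Ntf5 and Ntrk2. It was -0.45 between Bdnf and Ntf3, and the other 10 pairs lay between -0.32 and 0.29. Libraries share depth, scaling and preparation, so these values describe them only. Of 12862 genes, those most like Ntf3 were Khk and Pecr (r = 0.95 each), and those most like Ntf5 were Wrnip1 (0.85) and S100a4 (0.84). For Ngfr they were Btbd6 and Axl (0.88 each), for Ntrk2 Ell3 (0.84) and Ogfrl1 (0.81), for Bdnf Mios and Epc1 (0.82 each) and for Ntrk3 Slc39a6 (0.75) and Prr36 (0.73). The best match of Ntrk3 was thus looser than that of any other member. Ntrk3 rests on about 7.82 to 106 reads per library, and the part of these low counts in its correlations was not tested.

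The rest of the pathway was read from 5 lists of 60 genes, of which 48 or 49 were tested in each table. In young females 4 of 49 passed (limma adjusted p under 0.05), 2 higher and 2 lower, where 3.94% of all genes did, 1.54% as higher and 2.4% as lower. In aged females 2 of 49 passed, both lower, where 0.669% of all genes did and 0.498% as lower. In young males none of 48 passed and in aged males none of 49, by limma. An unadjusted limma p was under 0.05 for 11 of 49 in young females, where 16.6% of all genes reached that. In aged females it was so for 12 of 49, where 14.3% of all genes did. The counts were 2 of 48 in young males (320 of all genes, 2.33%) and 1 of 49 in aged males (119 of all genes, 0.83%). Of the called genes, Sorcs2 and Plat were called in both female tables.

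Sorcs2, a sortilin-type partner of p75 for neurotrophin precursors (chromosome 5, 36017180 to 36398139, minus strand), fell in the cKO of both female tables. The young female values were 242, 181, 253.96 and 392 in controls and 72.4, 83.0, 102, 104 and 171 in cKO. The groups did not overlap, as for 4.89% of tested genes in that direction, and the means of 267 ± 89.2 (SD, n = 4) and 107 ± 38.4 (SD, n = 5) gave a log2 change of -1.33 (SE 0.27, limma adjusted p = 0.0256). In aged females it was 797 and 735 against 309.5 and 318, a log2 change of -1.28 (SE 0.13, limma adjusted p = 0.0273). Young males had 303, 344 and 340.5 against 157, 203 and 231, again without overlap (2.42% of tested genes in that direction), a log2 difference of -0.76 (SE 0.20) that did not pass over all genes. In aged males it was 636, 366 and 312 in the libraries labelled control and 211, 369 and 356 in those labelled cKO, a log2 difference of -0.46 (SE 0.33), and -1.21 without the 3 libraries. The young female call was lost without any of control 1, 3 or 4 or cKO 2, 3 or 4, and the aged female calls of Sorcs2 and Plat were lost without any 1 library and with no filter on low values; that of Plat was also lost with quantile normalization.

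Plat, the tissue plasminogen activator gene, whose protein acts in the plasmin pathway that can cut pro-BDNF (chromosome 8, 22757727 to 22782844, plus strand), fell in the same 2 tables. In young females it was 496, 443, 447 and 538 in controls and 149, 307, 136, 181 and 233 in cKO, a log2 change of -1.31 (SE 0.22, limma adjusted p = 0.0102). The aged female values were 715 and 666 against 344 and 368, a log2 change of -0.95 (SE 0.13, limma adjusted p = 0.0478). In young males it was 431, 666 and 817 against 425, 400.0 and 339, a log2 difference of -0.67 (SE 0.24) that did not pass. The groups did not overlap, as for 2.42% of tested genes in that direction. In aged males Plat was 645, 198 and 821 against 366, 443 and 697, a log2 difference of 0.04 (SE 0.53). That difference was -0.35 without the 3 libraries. Endothelial cells also make this protein, and the summed level of 8 endothelium and pericyte markers was 1026 to 1897 in young female controls against 551 to 1198 in cKO, and 2620.0 to 2647 against 1397 to 1468 in aged females. Most of that sum was Cspg4, placed on this list as a pericyte marker, which averaged 1383 in young female controls and 777 in cKO. Which cells its reads came from was not tested. The other 7 markers summed to 62.5 to 122 in young female controls and 35.6 to 209 in cKO, with overlap, and to 277 to 346 against 204 to 225 in aged females. The endothelial markers Pecam1 and Cdh5 averaged 26.0 and 8.77 in young female controls against 38.6 and 13.3 in cKO. In aged females they averaged 82.1 and 47.3 against 54.5 and 17.3. Of the 5 tested markers of the list, 3 had a log2 difference above 0 in young females, and 1 of 7 did in aged females. Cspg4 was the 1 called gene of 72 marker genes tested in aged females (log2 change -0.93, limma adjusted p = 0.0273), and none was called of 66 in young males or 71 in aged males. The part of these cells in the Plat values was not tested. Summed Merkel cell markers were 131 to 143.2 in the aged female controls and 145 to 147 in cKO.

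Gfra2, the neurturin co-receptor of the related GDNF family (chromosome 14, 70890120 to 70979838, plus strand), rose in young females. It was 151, 108, 110.4 and 142 in controls and 226, 334, 323, 350.5 and 236 in cKO, a log2 change of 1.19 (SE 0.18, limma adjusted p = 0.00615). In the other tables the mean was also higher in cKO without passing the test. It was 64.6 ± 40.4 (SD, n = 3) against 111.1 ± 22.8 (SD, n = 3) in young males, 218 ± 66.1 (SD, n = 2) against 355 ± 28.1 (SD, n = 2) in aged females, and 124 ± 56.6 (SD, n = 3) against 190.0 ± 16.2 (SD, n = 3) in aged males. The aged male log2 difference of 0.70 became -0.06 without the 3 libraries. Maged1, which encodes an adaptor that binds p75 (chromosome X, 94535474 to 94542143, minus strand), also rose in young females. It was 1253, 967, 1277 and 1151 in controls and 1439.6, 1569, 1787, 1786 and 1657 in cKO, a log2 change of 0.51 (SE 0.11, limma adjusted p = 0.0274). Maged1 means were also higher in the cKO of the other tables without passing, with log2 differences of 0.34 (SE 0.15) in young males, 0.36 (SE 0.10) in aged females and 0.15 (SE 0.16) in aged males, or 0.14 without the 3 libraries. The young female call of Maged1 was lost without any of control 1, 2 or 4 or cKO 3, 4 or 5, whereas Plat and Gfra2 stayed called without any 1 library.

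**Figure D4:**
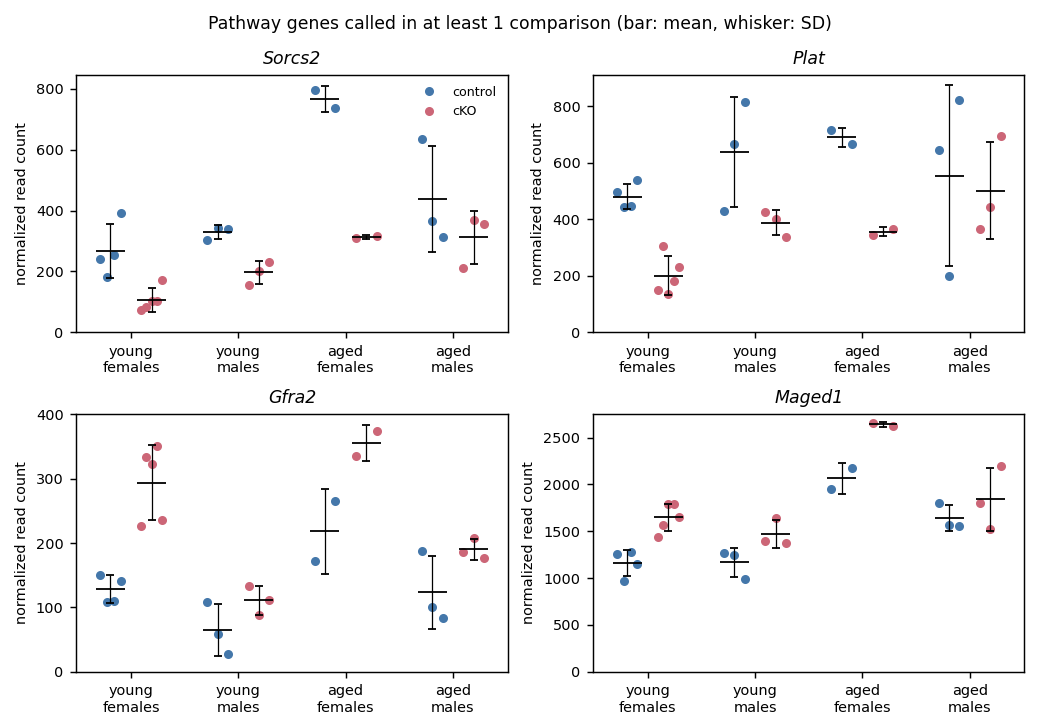
Normalized read counts (y axis, linear, from 0) of the 4 pathway genes called in at least 1 comparison, by table and genotype; points are libraries, bars means and whiskers 1 SD. Sorcs2 is at 72.4 to 171 in young female cKO against 181 to 392 in controls, and at 309.5 to 318 in aged female cKO against 735 and 797.

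The medians of the 5 lists in young females lay between -0.03 and 0.27, where that of all tested genes was -0.01. Of 12 tested genes of the list of further ligands, receptors and receptor partners, 1 was higher (Maged1) and 1 lower (Sorcs2), with a median log2 difference of 0.17. The best expressed genes of that list beside these were Sort1, the sortilin gene (log2 difference -0.28, SE 0.10), Kidins220, a Trk scaffold (0.22, SE 0.11), Rtn4r, the Nogo receptor (-0.72, SE 0.20), and Bex3 (0.07, SE 0.19). None of the 13 tested adaptors and effectors that carry the signal from a Trk receptor was called, and their median was 0.01. Among them Gab1 stood at -0.27 (SE 0.07), Crk at -0.04 (SE 0.07), Ptpn11 at 0.01 (SE 0.07) and Grb2 at -0.15 (SE 0.07). Of 7 tested genes of precursor processing 1 was called (Plat), with a median of -0.03, and the protease gene Furin stood at -0.03 (SE 0.16). None of 11 immediate targets and feedback genes was called, with a median of 0.06; Fos stood at 0.06 (SE 0.16) and Egr1 at 0.41 (SE 0.20). Of 6 tested genes of the GDNF family 1 was called (Gfra2), with a median of 0.27.

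With the series as a replicate block, 11 of these 49 genes passed in young females, 5 higher and 6 lower, where 14.5% of all genes did, 6.07% as higher and 8.4% as lower. They were the 4 above and, named after their values were seen, Arc (log2 change 1.42), Kidins220 (0.20) and Mmp9 (0.37) as higher, and Gab1 (-0.28), Pcsk6 (-0.44), Rtn4r (-0.78) and Sort1 (-0.30) as lower. In aged females the block left Sorcs2 and Plat as the calls, where 2.94% of all genes passed. No pathway gene passed with the block in young males, where 0.0509% of genes did, or in aged males (0.014%).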

How the data were processed

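Poly(A) RNA of mouse epidermis was sequenced from libraries made with a directional kit, per the labels' protocols. The authors deposited 4 tables of signal, normalized read counts per gene and library, and comparison tables with mean signal, log2 fold changes, standard errors, test score, p-value and adjusted p-value, per the file headers. STAR and DESeq2 are listed in the submitters' processing notes, as are the genome builds GRCm38 and mm10, with no version of either tool. The counting program, annotation and filters are not given in the sources used here. The values are not whole counts: 54.3% to 88.7% of low values per library lay within 0.1 of a whole multiple of the library's smallest step. A count test had been planned only for whole counts, so limma (3.58.1, R 4.3.3) with an intensity trend was used on log2(value + 1). It ran within each table on genes that reached 10 in no fewer libraries than the smaller group holds; p-values were adjusted by Benjamini-Hochberg over every tested gene, and 0.05 was the threshold. Gene names that had turned into dates (26 per table) were left out. The procedure was tested on simulated data.

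The 6 genes, the pathway and marker lists and the tests were chosen with earlier results of these data known. Named genes are all members, called pathway genes, up to 4 other pathway genes per list with high mean values, and the 5 genes most like each member, of which the top 2 are printed. The labels do not state that replicates came from separate animals, so p-values measure only the spread between these libraries, which may be technical. Control and cKO libraries whose title numbers fall in the same series deviated together from their group means, with positive r. It was 0.23 to 0.35 over 7 pairs in young females and 0.38 to 0.51 over 3 pairs in young males. It was 0.25 to 0.69 over 3 pairs in aged males, and 0.23 in aged females, with 2 libraries a group. Across series r was -0.36 to 0.39 over 13 pairs in young females and -0.34 to -0.05 over 6 in young males. In aged males it was -0.49 to 0.34 over 6 pairs, and in aged females -0.23. These ranges thus overlapped in young females and aged males, and the highest r in young females was across series. The pairing comes from the title numbers. Alternatives were no filter, pseudocounts of 0.5 and 5, TMM scaling, quantile normalization, the series as a replicate block, leaving out each library, and leaving out 3 aged male libraries. Coordinates and exon lengths are from GENCODE (GRCm38), and start windows from RefSeq.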

Additional observations from a re-analysis of the deposited data

Results flagged for a closer look

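The cKO libraries of 2 tables lay on opposite sides of their control means for Ntf5. The difference between the tables was not tested. Ntf5 had a log2 difference of -0.28 in aged females, where both cKO libraries lay below the control mean, and of 0.13 in aged males, where all 3 libraries labelled cKO lay above it. Without the 3 aged male libraries whose Gh went against the label the second value was -0.01.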

How the results depend on the processing

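The 24 differences of the 6 genes were recomputed in 300 alternatives, of which 298 moved by less than 1 SD between libraries. Some of these could not move. The filter does not enter a gene's own difference. The block does not change it where each series holds as many controls as cKO libraries, as in all tables but young females. The 1 value called in the main fit, Ntrk3 in young females, kept its sign. Of the 24 differences, 13 kept their sign in every alternative. Ntrk3 in young females ranged from 1.96 to 2.56. The 2 that moved were Ntrk2 (-1.34) and Ngfr (-0.76) in aged males without the 3 libraries whose Gh went against the label. With the series as a replicate block, genes called over all genes went from 547 to 2011 in young females, from 2 to 7 in young males and from 98 to 431 in aged females, and pathway genes called in young females from 4 to 11. The block changed no other call of the pathway genes. Without 1 library at a time, genes called over all genes ranged from 274 to 435 in young females, from 1 to 3 in young males, from 13 to 30 in aged females and from 0 to 1 in aged males. Pathway genes called then ranged from 2 to 4 in young females and were 0 in aged females for each library left out. In aged females, no filter left 1 gene called over all genes and 0 pathway genes, and quantile normalization left 65 and 1. Without the 3 aged male libraries, 58 genes were called over all genes in aged males, and the lone control is then assumed to vary like the others, as is the lone library when 1 aged female library is left out. Where the alternative removes samples the fit has fewer of them; the cause of the other shifts was not tested. Ntrk3 rests on about 7.82 to 106 reads per library, which limits it.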

Other observations

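Ntrk2 and Ntf3 stood in a different ratio in female and male libraries. Within a library the ratio of their normalized read counts does not depend on the scaling of its table. It ranged from 3.43 to 7.95 with a median of 4.38 in the 13 female libraries and from 0.786 to 3.41 with a median of 1.97 in the 12 male libraries, control and cKO together, so the ranges did not overlap. The pair was chosen after the values were seen, no test was made, and sex and table cannot be told apart. Ntrk2 itself, in counts per M of each library's summed values, ranged from 28.8 to 73.9 in females with a median of 58.2, and from 8.90 to 41.2 in males with a median of 19.7. The ranges of all 6 members overlapped between the sexes on that scale. Of 13448 genes tested in all 4 tables, 26 (0.193%) lay above every male library in every female library and 2 (0.0149%) below.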
